A study of Mus musculus with 4 samples.

Results

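Boundaries of chromatin domains that were found in the same place in embryonic stem cells (ESCs) and in the motor neurons (MNs) made from them are described here. Members were chosen by measured values, namely the contacts summed over the WT and PATZ1 KO libraries of each cell state. On the autosomes, a square of contacts was summed for every 8 kb bin, joining the 31 bins before it (248 kb) to the 31 bins after it. The insulation score was the log2 of this sum over the mean of its chromosome, so that a low score means few contacts across the bin. A boundary was the bin with the lowest score within 15 bins on each side, a score under -0.5 and at least 500 contacts in the square of all 31 bins searched. By this rule 2612 boundaries were called in ESCs and 2699 in MNs, and 1250 boundaries had a partner in the other cell state within 1 bin. MN values of such a boundary are those of its MN bin. The coordinates, gene and GC content given for a named boundary are those of its ESC bin. These 1250 shared boundaries were 47.9% of the ESC boundaries and 46.3% of the MN boundaries, among 4061 distinct boundaries in all.

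Micro-C, which cuts cross-linked chromatin with micrococcal nuclease and joins neighbouring fragments, was performed in E14 mouse cells with 1 library in each of 4 groups. WT ESCs and PATZ1 KO ESCs were grown in medium with LIF and inhibitors of MEK and GSK3, and WT MNs and PATZ1 KO MNs were differentiated from such cells through embryoid bodies with retinoic acid and a smoothened agonist. PATZ1 KO cells carried a CRISPR/Cas9 knockout of Patz1 in E14 ESCs, made as single clones, and the clone used for Micro-C was not given in the sources used here. The identity of the cells could not be checked, since contacts of genomic DNA measure no expression. The ESC list held 23095428 pairs of bins, with 170946673 contacts for WT and 160496081 for PATZ1 KO. The MN list held 21005697 pairs, with 110991835 and 118032533 contacts. With 1 library in each group there was no replicate check on any difference, no p-value was computed, and every interval covers counting error or the spread between boundaries only. The columns are numbered and carry no sample name, so every direction assumes that number 1 is WT and number 2 PATZ1 KO, as the name of the comparison orders them. The study's list of read numbers ranks the depth of WT and PATZ1 KO the opposite way to these contact totals in both cell states. If the columns were exchanged, every difference between PATZ1 KO and WT would change sign, as would its correlation with GC content. The counts of higher and lower scores in PATZ1 KO would change places. In the bin that holds the start of Patz1 (chr11:3288001-3296000) the WT and PATZ1 KO libraries held 562 and 399 contacts in ESCs, and 380 and 228 in MNs, a log2 ratio of -0.39 (95% counting interval -0.58 to -0.20) and -0.81 (-1.05 to -0.57) after scaling to the autosomal total. The next 2 bins of the gene were at 0.20 and 0.088 in ESCs and at -0.45 and -0.48 in MNs, so of the 3 bins of Patz1 only the first was lower in PATZ1 KO in ESCs, while all were lower in MNs.

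Chromosomes fold into topologically associating domains, stretches within which loci meet more often than they meet loci beyond the domain's edge. In loop extrusion, the cohesin ring reels in DNA until it is halted, most often at CTCF bound with its motif pointing toward the incoming cohesin, so that the edges of neighbouring domains tend to carry CTCF motifs that point away from the boundary into the domain they close. Active gene starts, among them those of housekeeping genes, also lie at many boundaries. PATZ1 is a zinc finger protein related to MAZ that binds G-rich sequence and has been studied at the borders within Hox gene clusters. The question addressed was how the boundaries common to both cell states differed between WT and PATZ1 KO.

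CTCF motifs around the shared boundaries tended to be divergent, and pairs of sites from 3 boundaries are printed to show this arrangement. These boundaries had the lowest mean scores among those with a minus-strand motif within 5 bins before, a plus-strand motif within 5 bins after, and sites that could be printed here. The sequences are from RefSeq GRCm38, each 30 bases long and read 5' to 3' on the strand of its motif, with the 12-base CTCF core in capitals. The first boundary (chr8:41432001-41440000) had its nearest protein-coding start, that of Frg1, 18.9 kb away, and both of its sites lay outside any gene, on the minus strand at chr8:41417221-41417250 and on the plus strand at chr8:41440061-41440090.
Frg1 before: ccttcgcttCCACCAGGGGGCgtctctata
Frg1 after: aaggtgtaaCCACCAGATGGCtttaggtaa
The second boundary (chr10:66816001-66824000) had its nearest start, that of Jmjd1c, 276.1 kb away. Its minus-strand site at chr10:66814654-66814683 lay in an intron of Gm47896, and its plus-strand site at chr10:66853367-66853396 lay outside any gene.
Jmjd1c before: gctcagcagCCACTAGATGGCgatgaatct
Jmjd1c after: tcaggtctgCCAGTAGGGGGCgcgcaaacc
The third boundary (chr13:40768001-40776000) had its nearest start, that of Tfap2a, 33.6 kb away, and both sites lay outside any gene, on the minus strand at chr13:40758198-40758227 and on the plus strand at chr13:40788435-40788464.
Tfap2a before: aacaaaattCCAGTAGATGGCagtgttgac
Tfap2a after: gcatggtccCCAGCAGGTGGCtgctttgaa
A match to the core shows only that these letters are present, and binding was not measured in these data.

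At the boundary near Frg1 the square held 1178 and 1001 contacts in WT and PATZ1 KO ESCs and 343 and 338 in WT and PATZ1 KO MNs, and the score of both libraries together was -1.73 in ESCs and -2.72 in MNs. At the boundary near Jmjd1c the 4 libraries held 734, 671, 328 and 267 contacts, in the same order. The boundary near Tfap2a held 1036, 880, 294 and 280 contacts. All 3 had a lower score in MNs than in ESCs.

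Shared boundaries carried the CTCF core and gene starts more often than the bins around them, and neither was used to choose them. A CTCF core motif lay within 1 bin of 408 of the 1250 boundaries (32.6%, exact 95% interval 30.04 to 35.3), against 10.9% of all scored bins. For such shares these are the 286391 autosomal bins whose surroundings passed the minimum of contacts in both cell states, and for scores and changes the 289757 bins that passed it in ESCs or the 286393 in MNs. The share was 25.8% (23.5 to 28.2) at the 1362 boundaries called in ESCs only and 21.7% (19.6 to 24.0) at the 1449 called in MNs only, so the intervals of the shared boundaries and of either other group did not overlap. A looser spelling of the core, CCANNAGNNGGC on either strand, was found within 1 bin of 84.9% of the shared boundaries and 63.8% of all scored bins. The start of a protein-coding gene lay within 1 bin of 609 shared boundaries (48.7%, 45.9 to 51.5), against 46.2% for ESCs only, 34.9% for MNs only and 16.1% of all scored bins. The intervals of the shared and ESC-only shares of gene starts overlapped (43.5 to 48.9 for ESCs only). Both features were present at 13.8% of the shared boundaries and neither at 32.4%, where 75.8% of all scored bins had neither. The median GC content of the boundary bin was 44.2%, against 41.4% for all scored bins.

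The strand of the motif changed at the boundary. In the 5 bins before a shared boundary there were 128 CTCF cores on the plus strand and 485 on the minus strand, so that 79.1% (75.7 to 82.3) pointed away from the boundary into the bins on their own side. In the boundary bin itself the strands were even, with 84 and 87. In the 5 bins after it there were 394 on the plus strand and 149 on the minus strand, and 72.6% (68.6 to 76.3) pointed away. At boundaries called in 1 state only the same shares were 68.6% and 61.5% in ESCs and 70.5% and 68.6% in MNs. A minus-strand core before and a plus-strand core after were both present at 120 shared boundaries, and a plus-strand core before with a minus-strand core after at 20. Per 1000 bins, minus-strand cores peaked at 117.6 in the bin before the boundary and plus-strand cores at 108.0 in the bin after it, against 20.8 and 20.1 over all scored bins. Gene starts peaked in the boundary bin itself, at 316.8 per 1000 bins against 67.5.

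**Figure D1:**
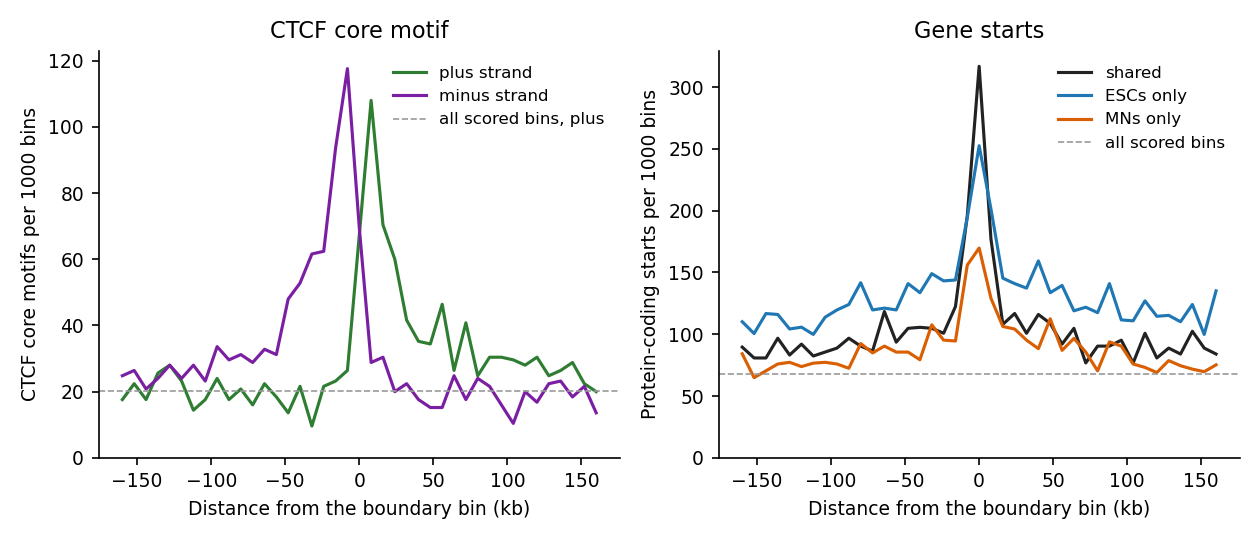
Left, CTCF core motifs per 1000 bins (vertical axis) by distance in kb from the 1250 shared boundaries, with plus-strand and minus-strand motifs as separate lines and the plus-strand level of all scored bins dashed. Right, protein-coding starts per 1000 bins around shared boundaries and around boundaries called in 1 state only, with the level of all scored bins dashed; minus-strand motifs peak just before the boundary (117.6) and plus-strand motifs just after it (108.0), while starts peak in the boundary bin (316.8 for shared boundaries).

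Genes of basic cell machinery were found at these boundaries at the highest rates among the lists examined. Of the starts of all 20807 autosomal protein-coding genes, 862 (4.14%) lay within 1 bin of a shared boundary. The share was 16 of 88 (18.2%, 10.8 to 27.8) for symbols of cytosolic ribosomal proteins, the parts of the ribosome that makes most cell protein, a list that by its symbols also takes in Rps19bp1 and Rpl3l. It was 10 of 78 (12.8%, 6.32 to 22.3) for mitochondrial ribosomal proteins and 6 of 49 (12.2%, 4.63 to 24.8) for symbols of the proteasome, which degrades tagged proteins. Olfactory receptors, which are clustered and silent in most cells, had 6 of 1128 (0.532%). Of the genes of cell identity, 0 of 18 pluripotency genes and 0 of 19 motor neuron genes had a start within 1 bin, which allows shares of up to 18.5% and 17.6% (exact 95% interval). Among the very long neuronal genes it was 1 of 15, Pcdh15, a cadherin-related adhesion protein, and among Hox genes 1 of 39, Hoxb9. Only 30 of these 39 Hox genes lay in scored bins, as did 19345 of the 20807 protein-coding genes. No boundary could be called in a bin that was not scored. Rplp1, a protein of the ribosomal stalk, and Rps24, of the small subunit, marked 2 of the lowest boundaries of these lists, with scores of -2.31 and -2.04 in ESCs and -2.17 and -2.21 in MNs.

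By their scores, which the rule used and which are given as a description, shared boundaries were lower than those called in 1 state. In ESCs the median score was -0.99 (quartiles -1.28 and -0.76, range -3.15 to -0.50) and in MNs -1.10 (quartiles -1.50 and -0.81, range -3.10 to -0.50). Boundaries called in ESCs only had a median of -0.86 in ESCs, and those called in MNs only had a median of -0.84 in MNs. Being called in 1 state only did not mean an open bin in the other, since 813 of the 1362 ESC-only boundaries had a score under the threshold in MNs as well and 708 of the 1449 MN-only boundaries in ESCs. A boundary of the other state lay 2 to 5 bins away for 512 of each. The partner in MNs was in the same bin for 741 shared boundaries, 1 bin before for 262 and 1 bin after for 247. Neighbouring shared boundaries on a chromosome lay a median of 1208 kb apart (quartiles 624 and 2336 kb).

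The bins with the lowest mean scores over both states overlapped a gene or lay up to 452.2 kb from the nearest protein-coding start. How well reads can be placed in these bins was not tested. The bin at chr8:123528001-123536000, overlapping Gas8, a component of the dynein regulatory complex of cilia, and the gene model Gm20388, held 438 and 377 contacts in WT and PATZ1 KO ESCs and 358 and 302 in the MN libraries, with scores of -3.15 in ESCs and -2.76 in MNs. The bin at chr6:130376001-130384000, overlapping Klra1, a natural killer cell receptor, held 576 and 523, and 247 and 294 contacts, with scores of -2.80 and -3.10. The other bins of the lowest set given here are named by their nearest gene. One overlapped Zfp868 (a zinc finger protein), and the start lay 4.8 kb away for H2-Q6 (a class I histocompatibility gene), 11.2 kb for Gsdmc (a gasdermin), 44.7 kb for Myo9b (an unconventional myosin) and 452.2 kb for Rpia (an enzyme of the pentose phosphate pathway). Their scores were -2.11 to -2.70 in ESCs and -2.28 to -2.61 in MNs. No CTCF core lay within 1 bin of any of these 7, and the one remaining boundary of the 8 lowest had a core on each strand. Just inside the threshold were the bins near Adra1d, Mcph1 and Ajap1, each at -0.50 in ESCs, and just outside it were those near Plxnc1 (-0.498 in ESCs), Cnga3 (-0.497 in MNs) and Gprc5b (-0.496 in ESCs).

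Scores were also set against the contacts within the neighbouring bins. This relative score holds the same square that the rule used, so its values are a description. The contacts within the 31 bins on each side were at a log2 level of -0.0054 of their chromosome mean in ESCs and 0.063 in MNs, beside 0.021 and 0.042 for all scored bins. At the 313 boundaries with the lowest mean scores these levels were -0.081 and -0.044. The score relative to these flanks had a median of -0.98 in ESCs and -1.15 in MNs, and values under -0.5 in both states were found at 1183 of the 1250 boundaries (94.6%), where 14.6% of all scored bins had such a value in ESCs and 16.2% in MNs. An unsequenced base lay within 31 bins of 51 boundaries.

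**Figure D2:**
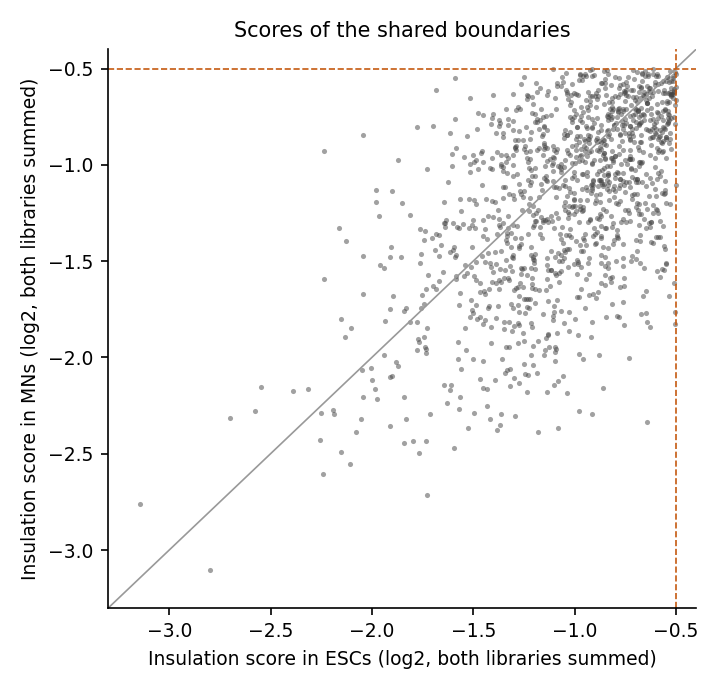
Insulation score (log2, both libraries of a state summed) of each of the 1250 shared boundaries in ESCs (horizontal axis) and in MNs (vertical axis), with the threshold of -0.5 dashed and the line of equal scores in grey. The points end at the threshold by construction, most lie above -2.0 on both axes, and 788 of 1250 lie below the line of equal scores, with a lower score in MNs.

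Across the 1250 boundaries the ESC and MN scores had a Pearson correlation of 0.56 and a Spearman correlation of 0.51, given as a description over boundaries that share their libraries. The score was lower in MNs at 788 boundaries, and the median difference, MNs minus ESCs, was -0.12 (-0.15 to -0.093). The rule chose members by these scores in both states, so the correlations and the difference are a description only. The 2 states were counted in separate lists, each set against its own chromosome means, and depth differed between them.

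Each library was also taken alone, as a description, since the same libraries were summed to choose the members. The same rule with a minimum of 250 contacts called a boundary within 1 bin of 1161 of them in the WT and 1150 in the PATZ1 KO library of ESCs, of 1113 and 1159 in those of MNs, and of 901 (72.1%) in all 4. In ESCs 91 were called in WT and not in PATZ1 KO, and 80 the other way. In MNs the counts were 84 and 130. When the boundaries were put in 4 groups of near-equal size by mean score, the share called in all 4 libraries was 81.5%, 79.2%, 72.4% and 55.3% from the lowest scores to the highest. The share with a CTCF core within 1 bin was alike in these groups (32.6%, 32.4%, 33.3% and 32.3%).

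In ESCs the scores of shared boundaries in PATZ1 KO lay close to those in WT. The median score of the WT library was -0.97 and that of the PATZ1 KO library -1.01, from a median of 1259 contacts in the square (range 327 to 2751) and 1124 (331 to 2750). The change of a boundary, PATZ1 KO minus WT, had a median of -0.015 (95% interval -0.022 to -0.0092), with quartiles of -0.080 and 0.039, where all scored bins had -0.0077. The score was higher in PATZ1 KO at 43.1% (40.4 to 45.9), against 46.7% of all scored bins. With the deeper library thinned to the depth of the other, the median was -0.032 and the share higher 33.6%. A change of over 1.2-fold, used here as the call because there were no replicates, was seen at 8 boundaries toward a lower score (0.64%), where it was seen at 0.837% of all scored bins. Toward a higher score there were 0 of 1250, which allows a share of up to 0.295%, where all scored bins had 0.198%. Both shares were near or below the background. Boundaries called in ESCs only had a median change of -0.048 in ESCs. Of these, 30.5% had a higher score in PATZ1 KO and 2.06% were past 1.2-fold lower. Those called in MNs only were at -0.0061, with 46.6% and 0.483%. The squares of shared boundaries held fewer contacts over both libraries than those of all scored bins. The medians were 2390 and 4812 in ESCs, and 1358 and 2925 in MNs. What this and the absence of pairs seen in a single library do to the shares past 1.2-fold in either state was not tested. The SD of the change over shared boundaries was 0.089, and the counting interval of 1 boundary was 0.23 wide at the median. At 166 boundaries (13.3%) this interval lay below 0 and at 69 (5.52%) above 0, beside 19.6% and 17.3% of all scored bins, whose squares held a median of 4812 contacts over both libraries and so had narrower intervals.

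In MNs the median score was -1.06 in WT and -1.16 in PATZ1 KO, from 702 (242 to 1763) and 652.5 (226 to 1651) contacts in the square. The change had a median of -0.11 (-0.12 to -0.093), with quartiles of -0.22 and 0.0049, where all scored bins had -0.0024. The score was higher in PATZ1 KO at 25.6% (23.2 to 28.1), against 49.6% of all scored bins. Toward a lower score 193 boundaries (15.4%) were past 1.2-fold, above the 10.6% of all scored bins. Toward a higher score 29 (2.32%) were past it, below the 16.2% of all scored bins. The counting interval lay below 0 at 482 boundaries (38.6%) and above 0 at 90 (7.2%), beside 33.1% and 34.2% of all scored bins (median 2925 contacts). Boundaries called in ESCs only, scored in MNs at 1294 bins, had a median change of -0.11 in MNs as well, with 16.6% past 1.2-fold lower and 4.64% higher. Those called in MNs only were at -0.026, with 7.73% and 12.4%. All 19 autosomes had a median below 0 in MNs, from -0.19 on chromosome 16 to -0.047 on chromosome 7.

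**Figure D3:**
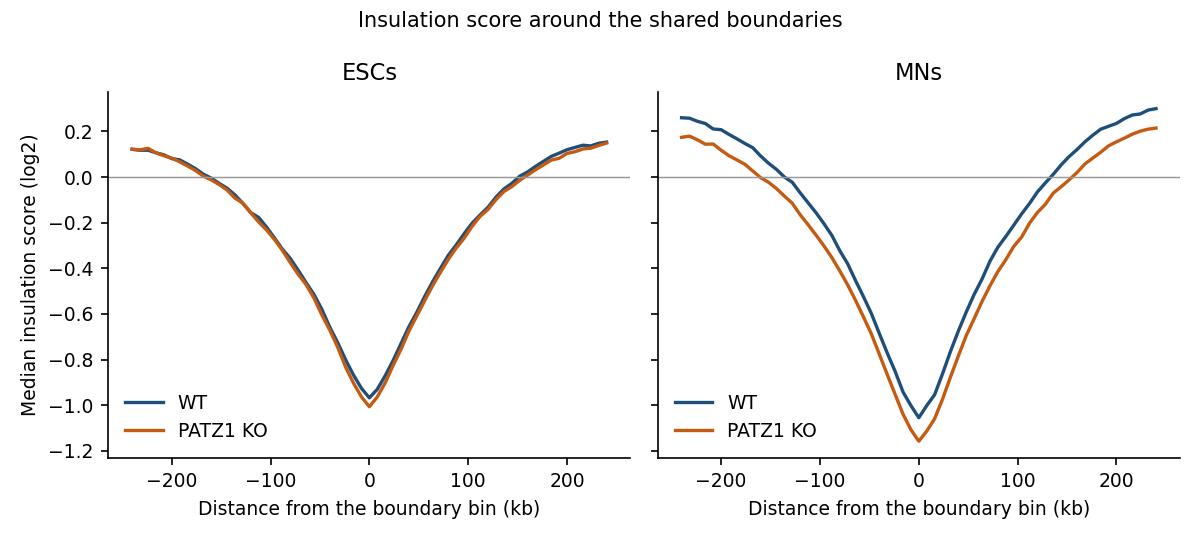
Median insulation score (log2, vertical axis) by distance in kb from the 1250 shared boundaries in ESCs (left) and MNs (right), with WT and PATZ1 KO as separate lines. In ESCs the lines lie together, from 0.12 at -240 kb to -0.97 and -1.01 at the boundary, and in MNs the PATZ1 KO line lies below the WT line along the whole window, at 0.17 against 0.26 at -240 kb and at -1.16 against -1.06 at the boundary.

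The lower scores of PATZ1 KO MNs were not limited to the boundary. At 240 kb before it the WT median was 0.26 and the PATZ1 KO median 0.17, and at 240 kb after it 0.30 and 0.21, gaps like the one at the boundary bin. After scaling to the autosomal totals, contacts across a shared boundary were at a median log2 ratio of -0.19 in MNs, and so were contacts within the bins before (-0.19) and within the bins after (-0.19), where all scored bins had -0.080, -0.049 and -0.048. Relative to the flanks the median change was -0.0079 (-0.017 to -0.0010), against -0.037 for all scored bins. In ESCs the ratios across, before and after were -0.040, -0.026 and -0.026, and the change relative to the flanks was -0.020 (-0.025 to -0.014), against 0.021. This ESC change relative to the flanks was -0.033 at boundaries called in ESCs only and 0.018 at those called in MNs only. The log2 ratio across was below the mean of both flanks at 727 boundaries in ESCs (58.2%) and at 677 in MNs (54.2%), beside 40.5% and 64.1% of all scored bins.

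**Figure D4:**
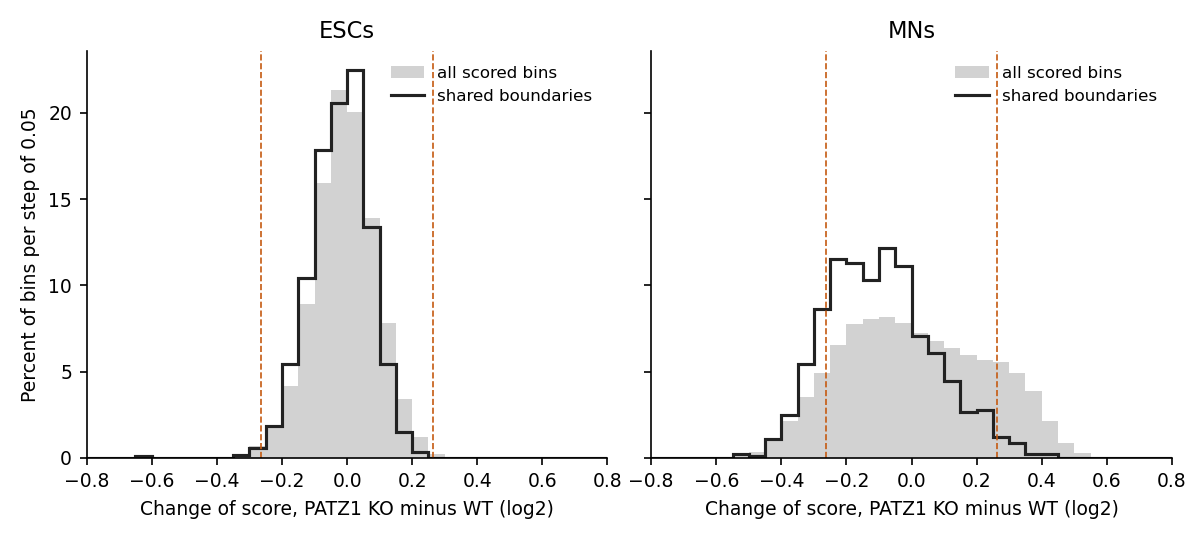
Percent of bins (vertical axis) in steps of 0.05 of the change of score, PATZ1 KO minus WT (log2, horizontal axis), for the 1250 shared boundaries as an outline and all scored bins in grey, with 1.2-fold dashed. In ESCs the outline follows the grey distribution, with 8 boundaries past 1.2-fold on the left and 0 on the right, and in MNs it is shifted to the left, with 193 on the left and 29 on the right.

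GC content moved with the change in MNs. Over all scored bins the Pearson correlation of GC content with the change was -0.78 in MNs and 0.0036 in ESCs, and over the 1250 boundaries -0.66 and -0.057, a description over bins of the same libraries. The relation over all scored bins in ESCs was curved, which a linear correlation does not show. Median changes were -0.045 at 34.6% GC content, 0.015 at 41.7% and -0.040 at 51.9%. When the boundaries were put in 3 groups by GC content, with medians of 39.8%, 44.2% and 48.5%, the median change in MNs was 0.024, -0.12 and -0.23, beside 0.083, -0.13 and -0.26 for bins of the same GC content, and -0.048, 0.0011 and 0.012 less those bins. Less the median of bins of the same GC content, the change at shared boundaries was -0.0100 (-0.019 to -0.00096) in MNs and -0.0089 (-0.016 to -0.0020) in ESCs. The 193 boundaries past 1.2-fold toward a lower score in MNs had a median GC content of 48.0%, and 124 of them had a gene start within 1 bin and 80 a CTCF core. The 29 past it toward a higher score had a median GC content of 36.9%, 4 had a gene start and 0 a CTCF core within 1 bin. Less the bins of the same GC content, 41 boundaries were past 1.2-fold toward a lower score in MNs, where 2.14% of all scored bins were, and 26 toward a higher score, where 2.77% were. Relative to the flanks the counts were 38 and 9, beside 1.5% and 0.182% of all scored bins. The part of GC content in the MN difference was not tested.

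**Figure D5:**
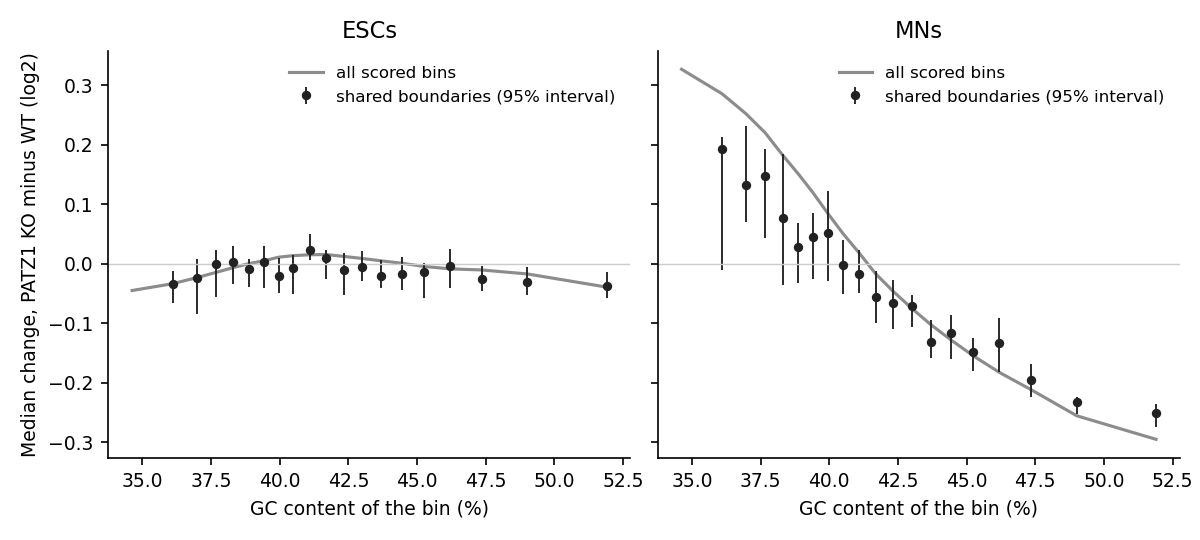
Median change of score, PATZ1 KO minus WT (log2, vertical axis), by GC content of the bin (percent, horizontal axis) in ESCs (left) and MNs (right), with all scored bins as a line and shared boundaries as points with 95% intervals of the median. In ESCs both stay closer to 0 than in MNs, and the line is below 0 at the lowest and highest GC content (-0.045 and -0.040). In MNs both run from above 0 at low GC content (0.33 for all scored bins at 34.6%) to below 0 at high GC content (-0.30 at 51.9%), with the points below the line at low GC content.

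The content of a boundary was set against its change. In ESCs boundaries with a gene start within 1 bin had a median change of -0.042 (-0.052 to -0.033, n = 609) and those without one 0.0056 (-0.0026 to 0.011, n = 641). Less the bins of the same GC content these were -0.033 and 0.0074. In MNs the same split gave -0.14 and -0.078, and -0.0046 and -0.014 less the bins of the same GC content. Relative to the flanks the MN values were 0.029 (0.014 to 0.043) with a start and -0.043 (-0.058 to -0.031) without, so the order was reversed in MNs. In ESCs the values relative to the flanks were -0.043 with a start and 0.0082 without, in the order of the direct values. Boundaries with a CTCF core within 1 bin were at -0.0083 in ESCs and -0.14 in MNs (n = 408), and those without at -0.019 and -0.087 (n = 842). Less the bins of the same GC content the values with and without a core were 0.0022 and -0.013 in ESCs and 0.0031 and -0.019 in MNs. Relative to the flanks they were -0.027 and -0.016 in ESCs and 0.0018 and -0.016 in MNs. Relative to the flanks, the order with and without a core was thus the reverse of that of the direct values in both states. Less the bins of the same GC content it was reversed in MNs only. A G-rich motif, GGGAGGG on either strand, was present a median of 9 times within 1 bin of shared boundaries and 8 times in all scored bins. In 3 groups by its number, with medians of 5, 9 and 18 matches, the change was -0.017, -0.019 and -0.011 in ESCs. In MNs it was -0.039, -0.12 and -0.16, and -0.040, -0.014 and 0.013 less the bins of the same GC content, which was 42.2%, 44.4% and 46.4% in these groups. PATZ1 binding was not measured in these data.

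By the score in the same cell state, 4 groups of boundaries from the lowest scores to the highest had median changes of -0.047, -0.030, -0.0010 and -0.00029 in ESCs and of -0.070, -0.094, -0.12 and -0.16 in MNs, so the order was opposite in the 2 states. The groups were cut by the score that the rule used. Their values were not set against bins of the same GC content and are a description. By the distance between the bins that meet, contacts 2 to 10 bins apart in the square had a median change of -0.045 in ESCs and -0.18 in MNs, those 11 to 25 bins apart -0.019 and -0.100, and those 26 to 62 bins apart 0.0014 and -0.072. The nearest contacts showed the lowest values in both states, where all scored bins were at -0.0012 and -0.0014 for 2 to 10 bins. These values were not set against bins of the same GC content. Every listed pair had 1 or more contacts in each library, and what this does to the values by distance was not tested.

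Of the 15 boundaries at cytosolic ribosomal protein genes, 11 had a lower score in PATZ1 KO in ESCs and 14 in MNs, with median changes of -0.091 and -0.20, beside a mean of -0.019 and -0.21 for bins of the same GC content. The lowest ESC value of this list was that of Rps3a1, of the small subunit, at -0.22. All 6 proteasome boundaries were lower in both states, with medians of -0.036 and -0.12, beside -0.0030 and -0.12 for bins of the same GC content. For mitochondrial ribosomal proteins it was 7 and 9 of 10, with medians of -0.013 and -0.18, beside -0.0033 and -0.12 for bins of the same GC content. Beside these counts, the score was higher in PATZ1 KO at 43.1% of all shared boundaries in ESCs and at 25.6% in MNs. None of the boundaries of these 3 lists was past 1.2-fold in ESCs. In MNs those at Rps3 (-0.27), Rps24 (-0.33), Rps19bp1 (-0.29), Mrpl44 (-0.33) and Mrpl20 (-0.31) were past it toward a lower score and none of the proteasome list was, where 15.4% of all shared boundaries and 10.6% of all scored bins were.

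In both states together, 521 of the 1250 boundaries (all scored bins 26.2%) had a lower score and 130 (22.4%) a higher score in PATZ1 KO. These counts also depend on each state alone, where the score was higher in PATZ1 KO at 43.1% in ESCs and 25.6% in MNs. The direction was the same in both states at 651 of the 1250 boundaries. Across boundaries the changes in ESCs and MNs had a Pearson correlation of 0.076, and 0.056 without chromosome 11. Relative to the flanks the correlation was -0.38, and GC content moved with these changes as well, with correlations of -0.36 in ESCs and 0.53 in MNs, whose part was not tested. Of the 8 past 1.2-fold toward a lower score in ESCs, those named by their nearest gene as Ncl, Zfp687, Tia1 and Dynll2 were past it in MNs as well. These were 4 of all 1250 shared boundaries, beside 0.191% of all bins scored in both states, counted without regard to a prior call in ESCs. The other 4 overlapped St6galnac4, Eif3j1 and the gene pair Spcs1 and Glt8d1, or lay far from any protein-coding start, the nearest being that of Dpp10 at 1121.6 kb. The boundary nearest to Dpp10 was at -0.28 in ESCs and 0.082 in MNs, and that at Eif3j1, of the translation initiation machinery, was at -0.32 and 0.013. Counting intervals lay below 0 in both states at 89 boundaries (7.12%), above 0 in both at 1 (0.080%) and on opposite sides at 43 (3.44%), beside 7.71%, 3.32% and 13% of the bins scored in both states.

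Dynll2 had the largest fall by mean change over both states. Its bin (chr11:87952001-87960000), 31.5 kb from the start of this dynein light chain gene, held 981 and 578 contacts in WT and PATZ1 KO ESCs, and 489 and 311 in the MN libraries. The PATZ1 KO library was the lower in both states, and the change was -0.60 (-0.75 to -0.45) and -0.52 (-0.73 to -0.31). Contacts within the bins before it were lower too, at -0.90 and -1.32, and within the bins after it at -0.24 and -0.62, so that relative to the flanks the change was -0.16 in ESCs and 0.16 in MNs. The lower contacts were thus not limited to those across the boundary, and copy number in these cells was not tested.

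The next falls were at genes with varied roles. The bin overlapping Atg7, an enzyme of autophagy (chr6:114640001-114648000), held 951 and 757 contacts in WT and PATZ1 KO ESCs and 1053 and 799 in MNs, a change of -0.25 and -0.43. The bin near Zfp687, a zinc finger gene (chr3:95024001-95032000), held 1217 and 894, and its MN bin, 1 bin before, held 825 and 694, a change of -0.31 and -0.32. The bin overlapping Tia1, an RNA-binding protein of stress granules (chr6:86400001-86408000), held 1745 and 1349, and 1145 and 940, a change of -0.29 and -0.32. As for all 5 largest falls, a lower score in PATZ1 KO in both states was a condition of naming these 3. The bin overlapping Prmt1, an arginine methyltransferase, and Bcl2l12 (chr7:44984001-44992000) held 737 and 573, and 689 and 509, a change of -0.25 and -0.33. Relative to the flanks these 4 were at -0.16 to -0.25 in ESCs and -0.047 to 0.041 in MNs. The 5 largest falls, less the bins of the same GC content, were at -0.21 to -0.60 in ESCs and -0.039 to -0.41 in MNs. No CTCF core lay within 1 bin of any of them.

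Tyrp1 marked the 1 boundary with a counting interval above 0 in both states. Its bin (chr4:80792001-80800000), 38.1 kb from the start of this enzyme gene of melanin synthesis, held 1382 and 1424 contacts in WT and PATZ1 KO ESCs and 532 and 604 in MNs. The change was 0.18 (0.076 to 0.29) and 0.21 (0.038 to 0.38). Less the bins of the same GC content it was 0.22 in ESCs and -0.076 in MNs, and relative to the flanks 0.22 and -0.10.

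In MNs the extremes were at genes chosen after their values were seen. The lowest change was at the bin overlapping Mthfsd and the gene model Gm20388 (chr8:121096001-121104000), with 1366 contacts in the WT and 918 in the PATZ1 KO library and a change of -0.54 (-0.67 to -0.42), while in ESCs it was at 0.026. The highest was at a bin 1442.6 kb from its nearest start, that of the bile acid transporter gene Slc10a2 (chr8:6544001-6552000), with 1241 and 1651 contacts and a change of 0.44 (0.33 to 0.55), and 0.020 in ESCs. The GC content of the bins at the printed coordinates was 54.3% and 36.6%, and the MN contacts and changes are those of the MN bin of each boundary. The MN changes less the bins of the same GC content were -0.25 at Mthfsd and 0.19 at the bin nearest to Slc10a2, and relative to the flanks they were -0.022 and -0.032.

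The 9 loci searched held 8 shared boundaries in all. Within 500 kb of HoxA, HoxD, Patz1 and Sox2 there were 0, near HoxB, HoxC and Dsp 2 each, and near Grb10 and Nanog 1 each. Only 30 of the 39 Hox genes lay in scored bins, and no boundary could be called in a bin that was not scored. Hoxb9, a patterning gene of the HoxB cluster, overlapped the only boundary within a Hox cluster (chr11:96264001-96272000), and the site printed first in this paragraph lay outside any gene on the minus strand at chr11:96265866-96265895. The square of the Hoxb9 boundary held 1211 and 1109 contacts in WT and PATZ1 KO ESCs. In the MN libraries it held 702 and 641, counted at the MN bin, 1 bin after the ESC bin. In ESCs the change was 0.036 (-0.083 to 0.15), and in MNs 0.0051 (-0.15 to 0.16), and both counting intervals included 0. Contacts within the bins before and after it were at -0.080 and -0.046 in ESCs and at -0.48 and -0.34 in MNs, so relative to the flanks the change was 0.040 and 0.21. Less the bins of the same GC content it was 0.076 in ESCs and 0.30 in MNs. A second boundary lay 500 kb beyond the cluster (chr11:96864001-96872000), with its nearest start that of Copz2, a coatomer subunit gene, and with a core on the minus strand in an intron of that gene at chr11:96860760-96860789. The 2 sites are shown because they lie within 1 bin of these boundaries.
Hoxb9 within 1 bin: agccctgtcCCACTAGGGGGCcctagaagg
Copz2 within 1 bin: cagccctggCCACTAGATGGCagcagcttg
The Copz2 boundary held 1389 and 1083 contacts in ESCs and 1046 and 761 in MNs, a change of -0.20 (-0.31 to -0.080) and -0.32 (-0.46 to -0.19). Contacts within the bins after it were at -0.96 in ESCs and -1.46 in MNs, so relative to the flanks the change was 0.33 and 0.44.

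Of the other loci, the boundaries beside HoxC overlapped Atp5g2, a subunit gene of the mitochondrial ATP synthase 245 kb before the cluster, and Itga5, an integrin gene 311 kb after it. Atp5g2 was at -0.17 (-0.30 to -0.037) in ESCs and -0.18 (-0.34 to -0.026) in MNs, and Itga5 at -0.12 (-0.25 to 0.019) and -0.095 (-0.28 to 0.092), where the interval included 0. The boundaries beside Dsp, which encodes desmoplakin, overlapped Ssr1 and Eef1e1. Ssr1 was at -0.11 (-0.24 to 0.0092) in ESCs and -0.11 (-0.26 to 0.028) in MNs, and Eef1e1 at -0.19 (-0.31 to -0.073) and -0.18 (-0.36 to 0.0017), so of these only the ESC interval of Eef1e1 excluded 0. The MN values less the bins of the same GC content were -0.13 for Atp5g2, 0.16 for Itga5, 0.069 for Ssr1 and 0.0028 for Eef1e1. The boundary in Grb10, an imprinted adaptor gene, was at -0.089 in ESCs and 0.020 in MNs. The boundary 463 kb before Nanog, with its nearest start that of Klrg1, was at 0.010 and -0.062, and all intervals of these last 2 boundaries included 0.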

How the data were processed

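Micro-C libraries of WT and PATZ1 KO ESCs and MNs (1 each) were aligned and made into matrices by the kit's company, which also ran the HiCcompare comparison, separately in each cell state. The deposited interaction frequencies were contact counts, in whole numbers, for pairs of 8 kb bins, and the deposited adjusted frequencies, a normalized signal, were used only in an alternative. Deposited columns of log ratios, scores and p-values of that comparison were not used. Every listed pair had 1 or more contacts in each library, so pairs seen in a single library are missing. What this does to the changes and to their counting intervals was not tested on these data. The build was mm10 per the labels, and all 20 chromosomes ended within GRCm38, of which the RefSeq sequence and the GENCODE vM21 annotation were used. Aligner versions were not given in the sources used here.

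From the counts, insulation scores were computed with Python 3.11.15, NumPy 2.4.6, SciPy 1.17.1 and PyArrow 21.0.0, and drawn with matplotlib 3.10.9. The scripts were tested on simulated data. Each library's square was set against its own chromosome mean, and the change was PATZ1 KO minus WT. Intervals (95%) were exact binomial for contacts and for shares, and based on order statistics for medians, the former covering counting error only, since reads without molecular identifiers are not independent molecules, and the latter the spread between boundaries. Bins were put in 20 classes by GC content for the comparison at like GC content.

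Boundaries named were the 8 with the lowest mean score, the 3 just inside and outside the threshold, up to 5 with the largest rise or fall of 1 sign in both states with intervals on 1 side of 0, and those within 500 kb of 9 loci, each by the gene overlapping its bin or the nearest start. Members, lists and tests were chosen with earlier results of these data known. One lowest-scoring boundary is not reported here. Alternatives are given in the closing section.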

Additional observations from a re-analysis of the deposited data

How the results depend on the processing

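No paired analysis was possible because each group had 1 library. In ESCs the median change of -0.015 was -0.026 with a square of 15 bins, -0.032 with the deeper library thinned and -0.0089 less bins of the same GC content, and the share higher in PATZ1 KO (43.1%) was 33.6% thinned and 45.9% less bins of the same GC content. The 8 boundaries past 1.2-fold lower were 2 against the flanks, 40 with 15 bins and 1 past 1.5-fold, and the 0 higher were 3 against the flanks, 5 with 15 bins and 2 less bins of the same GC content. In MNs the median of -0.11 was -0.0079 against the flanks, -0.13 with 15 bins and -0.0100 less bins of the same GC content. The share higher (25.6%) was 46.9% against the flanks, 29.4% thinned and 47.0% less bins of the same GC content. The 193 lower were 38 against the flanks, 370 with 15 bins, 41 less bins of the same GC content and 0 past 1.5-fold, and the 29 higher were 9, 64 and 0 against the flanks, with 15 bins and past 1.5-fold. The number of shared boundaries was 741 with a match in the same bin only. A CTCF core was present at 84.9% with the looser spelling and at 12.8% in the boundary bin alone, and a gene start at 25.04% in the bin alone. The medians over all shared boundaries kept their sign under the alternatives run. Less bins of the same GC content, medians of groups in MNs turned: those with a CTCF core went from -0.14 to 0.0031, those with the most G-rich motifs from -0.16 to 0.013, and the groups of lowest, middle and highest GC content from 0.024, -0.12 and -0.23 to -0.048, 0.0011 and 0.012. In ESCs the same comparison turned the groups with a CTCF core (-0.0083 to 0.0022) and with the most G-rich motifs (-0.011 to 0.00061). Against the flanks, MN medians turned for boundaries with a CTCF core (0.0018), a gene start (-0.14 to 0.029), the most G-rich motifs (0.021) and the lowest (-0.10) and highest (0.065) GC content, and ESC medians for the lowest GC content (-0.0067 to 0.021) and the fewest G-rich motifs (-0.017 to 0.0076). The cause of these shifts was not tested. Depth limits single boundaries, since the counting interval of a change was 0.23 wide in ESCs and 0.31 in MNs at the median, from its lower to its upper end.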
